A study of Mus musculus with 2 samples.

Results

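The immediate early genes Egr1, Egr3, Fos, Fosb, Jun, Junb, Nr4a1, Npas4 and Arc were followed by single-nucleus RNA-seq in whole mouse retina at postnatal day 21. These 9 genes, chosen by their symbols in the deposited gene table from 32227 genes in all, were each found once. The set was put together with earlier results of these data known, and Egr3 was picked for its higher level in the Tet tcKO library, so its difference between the libraries is given as a description. One library came from Tet tcKO animals, in which loxP-flanked Tet1, Tet2 and Tet3 were deleted by a Chx10::Cre-GFP transgene active in retinal progenitor cells. The other came from Cre− controls of the same age, bred from Cre− parents and labelled WT. Strain C57 BL/6J was given for both. Per the study's methods, each reaction took nuclei of 2 independent pools of dissociated retinas, each from several animals, and the pool of a nucleus is not recorded in the tables used here. Each genotype was therefore 1 sample, no difference below could be checked against replicates, and no test between genotypes was made. All intervals are exact at 95% and cover counting error only.

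Immediate early genes are transcribed within minutes of a stimulus without new protein synthesis, and their mRNAs are short-lived. In neurons they respond to calcium entry and growth factor signals through factors such as CREB, SRF and MEF2 that already sit at their promoters. EGR1 and EGR3 are zinc finger transcription factors. FOS, FOSB, JUN and JUNB are subunits of the dimeric factor AP-1. NR4A1 is an orphan nuclear receptor, NPAS4 is a neuronal transcription factor that follows calcium entry closely, and ARC acts at synapses in the removal of glutamate receptors. In the retina these genes are known for their response to light, and Egr1 in particular is widely used as a marker of light-driven signalling. Levels were measured in nuclei, so they include unspliced transcripts and leave out most cytoplasmic mRNA.

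The upstream sequences of Nr4a1, Npas4 and Fos are shown as those of members with different ratios, and no link between sequence and ratio was tested. As described below, Nr4a1 and Npas4 stood lower in Tet tcKO over all nuclei. Fos stood higher in photoreceptors before nuclei were set to equal depth, and its intervals in amacrine and retinal ganglion cells spanned 0. The sequences are the 250 bases before the RefSeq start in GRCm38.p6, 5′ to 3′ on the gene's strand. Capitals mark TGACG or its reverse complement CGTCA, the short form of the cAMP response element, here called the core, which CREB binds. Nr4a1 lies at chr15:101266596-101266845 on the plus strand, Npas4 at chr19:4989972-4990221 on the minus strand and Fos at chr12:85473640-85473889 on the plus strand.
Nr4a1: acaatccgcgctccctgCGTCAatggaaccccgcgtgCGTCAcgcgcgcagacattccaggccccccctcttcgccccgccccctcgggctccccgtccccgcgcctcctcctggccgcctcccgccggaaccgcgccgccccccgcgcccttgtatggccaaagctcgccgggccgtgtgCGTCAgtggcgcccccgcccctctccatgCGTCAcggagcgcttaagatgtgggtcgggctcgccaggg
Npas4: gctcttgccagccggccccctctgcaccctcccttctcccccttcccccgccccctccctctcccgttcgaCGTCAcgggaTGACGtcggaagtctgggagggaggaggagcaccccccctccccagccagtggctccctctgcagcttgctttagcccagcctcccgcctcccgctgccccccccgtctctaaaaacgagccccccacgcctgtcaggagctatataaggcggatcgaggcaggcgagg
Fos: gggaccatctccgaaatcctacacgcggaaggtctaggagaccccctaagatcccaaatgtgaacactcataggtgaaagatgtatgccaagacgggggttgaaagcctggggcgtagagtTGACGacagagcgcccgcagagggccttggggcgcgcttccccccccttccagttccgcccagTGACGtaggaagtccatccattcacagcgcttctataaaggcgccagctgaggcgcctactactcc
RefSeq promoters were matched for 6 of 9 members. Of 32851 promoter windows of this length, 17.8% held the core on either strand, 3.90% held 2 or more and 0.137% held 4 or more. Nr4a1 held 4, Npas4 and Fos held 2 each, Fosb and Junb held 1 each, and Jun held 0. The full palindrome TGACGTCA, which contains the core on both strands, was in 1.55% of windows and in 0 of these 6. The CArG box, to which SRF binds, was in 1.47% of windows and likewise in 0 of these 6. It was read only as CC, 6 bases of A or T, and GG. Looser matches and sites further upstream than these 250 bases were not looked for. CpG dinucleotides, the sites at which TET enzymes oxidise methylcytosine, numbered 34 upstream of Nr4a1, more than in 96.5% of windows, and 15 upstream of Fos and 16 upstream of Npas4, against a median of 6. A match is a description of these letters and not a measured site of binding.

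In Cre−, 11510585 unique molecular identifiers (UMIs) were counted over 7357 nuclei, a median of 1107 per nucleus. In Tet tcKO, 16590747 UMIs were counted over 6766 nuclei, a median of 1836.5. The 13 mitochondrial genes took 5.47% of UMIs in Cre− and 1.76% in Tet tcKO. The libraries shared 1 cell barcode. Levels are UMIs per 1000000 UMIs (CPM) of a population. Transcripts of the targeted genes were present in both libraries, with log2 ratios of 0.29 for Tet1, 0.41 for Tet2 and −0.05 for Tet3. Reads from a 3′ kit need not cover the deleted exons, so these values do not check the deletion. The amacrine, horizontal, retinal ganglion cell (RGC) and Müller glia annotations passed a check against marker genes, while rods, cones and bipolar cells did not. Rods and cones passed once merged and without cluster 32, a set of 568 Cre− nuclei led by mitochondrial genes and Nefl, and were compared in that form.

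Over all nuclei, the EGR members stood higher in Tet tcKO, the AP-1 members differed little, and Nr4a1 and Npas4 stood lower. The sum of the 9 members came to 135 CPM for Cre− and 178 CPM for Tet tcKO. Without Egr1 and Egr3 the other 7 summed to 124 CPM and 105 CPM. Egr1 and Egr3 gave 8.16% of member UMIs in Cre− and 41.1% in Tet tcKO. The difference between the libraries was therefore not shared by the set. The plot of member levels in each library shows the 9 genes side by side.

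**Figure D1:**
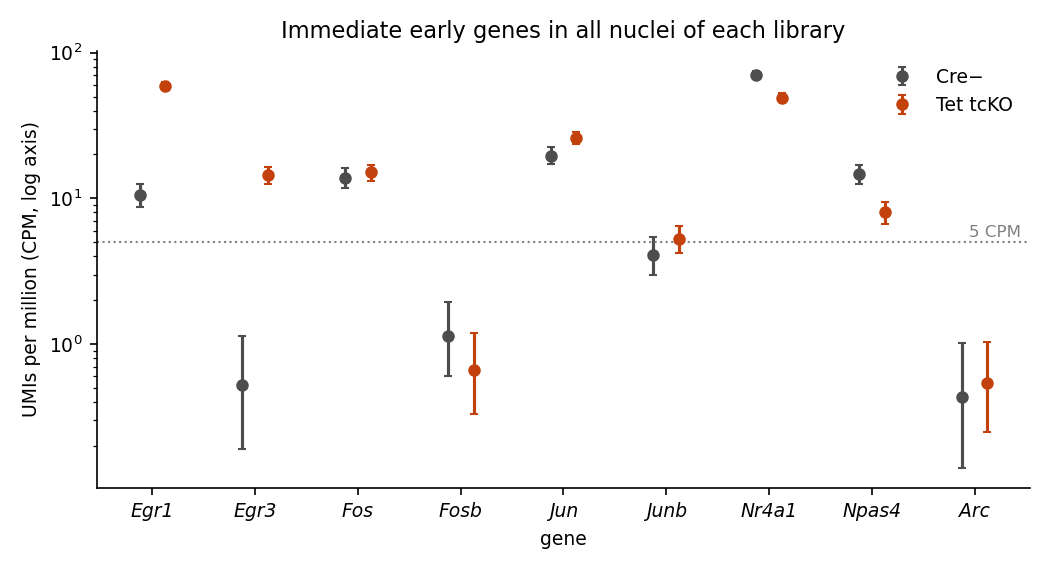
Level of each immediate early gene over all nuclei of the Cre− library (grey) and the Tet tcKO library (orange), in CPM on a log axis. Bars are exact 95% Poisson intervals (counting error only) and the dotted line marks 5 CPM. The intervals of the libraries lie apart for Egr1, Egr3, Jun, Nr4a1 and Npas4 and overlap for Fos, Fosb, Junb and Arc.

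Egr1 (ENSMUSG00000038418, chromosome 18, 34992876 to 34998049 in GRCm39) gave 121 UMIs in Cre− and 974 in Tet tcKO, or 10.5 CPM (8.72 to 12.6) and 58.7 CPM (55.1 to 62.5). The ratio was 5.58-fold, a log2 ratio of 2.48 (2.21 to 2.77). Egr3 (ENSMUSG00000033730, chromosome 14, 70314350 to 70320063) gave 6 UMIs in Cre− and 239 in Tet tcKO, or 0.521 CPM (0.191 to 1.13) and 14.4 CPM (12.6 to 16.4). Its log2 ratio was 4.79 (3.65 to 6.25), and the width of the interval follows from the 6 UMIs of Cre−. Among 12654 genes with a mean of at least 5 CPM over the libraries, Egr3 ranked 11 and Egr1 ranked 38 from the highest ratio. Egr3 passed that filter only through its Tet tcKO level.

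Among the AP-1 members, Jun was modestly higher and Fos was level over all nuclei. Jun (chromosome 4) gave 226 and 434 UMIs, which make 19.6 CPM and 26.2 CPM with a log2 ratio of 0.41 (0.18 to 0.65). Fos (chromosome 12) gave 160 and 250 UMIs, or 13.9 CPM and 15.1 CPM, with a log2 ratio of 0.12 (−0.18 to 0.41). Junb (chromosome 8) gave 47 and 87 UMIs, 4.08 CPM and 5.24 CPM, with a log2 ratio of 0.36 (−0.17 to 0.90). Fosb (chromosome 7) gave 13 UMIs in Cre− and 11 in Tet tcKO, too few to set a direction (log2 ratio −0.77, −2.07 to 0.51). Jun overlaps Junos and Junb overlaps Prdx2 on the opposite strand. Nr4a1 overlaps 3 further annotated genes that the deposited table does not hold, Gm56721 on the same strand and Gm63180 and Gm63176 on the opposite one. The sources used here do not say whether the counting used strand, so reads shared with these genes cannot be told apart.

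Nr4a1 and Npas4 went the other way. Nr4a1 (chromosome 15, 101151980 to 101172681) gave 809 UMIs in Cre− and 815 in Tet tcKO, or 70.3 CPM (65.5 to 75.3) and 49.1 CPM (45.8 to 52.6), a log2 ratio of −0.52 (−0.66 to −0.37). Npas4 (chromosome 19, 5034382 to 5040344) gave 169 and 133 UMIs, or 14.7 CPM (12.6 to 17.1) and 8.02 CPM (6.71 to 9.50), a log2 ratio of −0.87 (−1.21 to −0.54). Both intervals exclude 0, so counting error alone did not span these differences. Arc, the synaptic member, gave 5 and 9 UMIs (log2 ratio 0.32, −1.41 to 2.25), and a difference was not detectable at this depth.

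Of the 9 members, 6 passed the filter of 5 CPM, and Fosb, Junb and Arc did not. A 2-fold difference was used as the call, since no test was possible. Of the 6, 2 were called higher (Egr1 and Egr3) and 0 lower, while 3.29% of all genes tested were called higher and 2.47% lower. Egr3 counts here because it was selected on this contrast. The median log2 ratio of all genes tested was 0.14, and that of all 9 members was 0.32. When the libraries were scaled by trimmed means (TMM) instead of by total UMIs, every log2 ratio over all nuclei shifted by −0.10, and the genes called changed from 416 higher and 312 lower to 322 higher and 408 lower. Relative to that shift, no member changed direction over all nuclei.

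In photoreceptors Jun, Fos and Junb stood above the Cre− level beside the EGR members, by less than 2-fold, while Fosb had too few UMIs to set a direction. Rods and cones comprised 4911 Cre− and 3231 Tet tcKO nuclei. Egr1 gave 75 and 654 UMIs there, or 10.6 CPM (8.31 to 13.2) and 88.3 CPM (81.6 to 95.3), a log2 ratio of 3.06 (2.72 to 3.43). Egr3 gave 5 and 163 UMIs, or 0.704 CPM and 22.0 CPM, a log2 ratio of 4.97 (3.71 to 6.61). Jun stood at 19.4 CPM and 38.5 CPM, a log2 ratio of 0.98 (0.69 to 1.29). Fos stood at 13.2 CPM and 21.1 CPM (log2 ratio 0.67, 0.29 to 1.05), and Junb at 5.07 CPM and 8.23 CPM, a log2 ratio of 0.70 (0.08 to 1.34). The interval excluded 0 for these 3 AP-1 members at full depth. With each nucleus thinned to 500 UMIs it did so for Jun (0.95, 0.38 to 1.53) and not for Fos (0.56, −0.18 to 1.30) or Junb (0.70, −0.45 to 1.86).

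Npas4 remained lower in photoreceptors, and Nr4a1 was nearly level when scaled by total UMIs. Npas4 gave 106 and 64 UMIs, 14.9 CPM and 8.64 CPM, a log2 ratio of −0.79 (−1.26 to −0.33). Nr4a1 gave 490 and 446 UMIs, 69.0 CPM and 60.2 CPM (log2 ratio −0.20, −0.39 to −0.01), and with cluster 32 included its interval reached 0 (log2 ratio −0.18, −0.37 to 0.00157). Fosb gave 9 and 5 UMIs (log2 ratio −0.91, −2.83 to 0.82) and Arc 3 and 4. Of 7 members that passed 5 CPM in rods and cones, 2 were called higher (Egr1 and Egr3) and 0 lower, against 6.65% and 2.68% of the 12782 genes tested. Egr3, selected on its rise and past the filter only through its Tet tcKO level, had to be among them, so the count is not support for the set. The median log2 ratio of those genes was 0.22, and TMM scaling shifted ratios in rods and cones by −0.19. That leaves 0.79 for Jun, 0.48 for Fos, 0.51 for Junb and −0.39 for Nr4a1, so the near level of Nr4a1 depends on the scaling.

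Genotype and photoreceptor type could not be told apart in this comparison. Annotated rods numbered 5214 in Cre− and 6 in Tet tcKO, and annotated cones 265 and 3225. Within the cone annotation the Cre− level of Egr1 was 8.73 CPM (3.99 to 16.6) and the Tet tcKO level was 88.2 CPM (81.6 to 95.3), with Egr3 at 0.970 CPM (1 UMI) and 22.0 CPM. Cre− rods, at 10.5 CPM for Egr1 (8.20 to 13.3), were close to Cre− cones. Nearly all Cre− cone nuclei lay in cluster 11, whose 10 leading genes held 1 rod marker and 0 cone markers, so the Cre− cone values may not be those of cones alone. Jun was at 16.5 CPM and 38.5 CPM in annotated cones, Fos at 9.70 CPM and 21.1 CPM, Nr4a1 at 56.2 CPM and 60.3 CPM, and Npas4 at 16.5 CPM and 8.65 CPM. The signs in annotated cones matched those in rods and cones together for these genes except Nr4a1, whose intervals overlapped there.

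**Figure D2:**
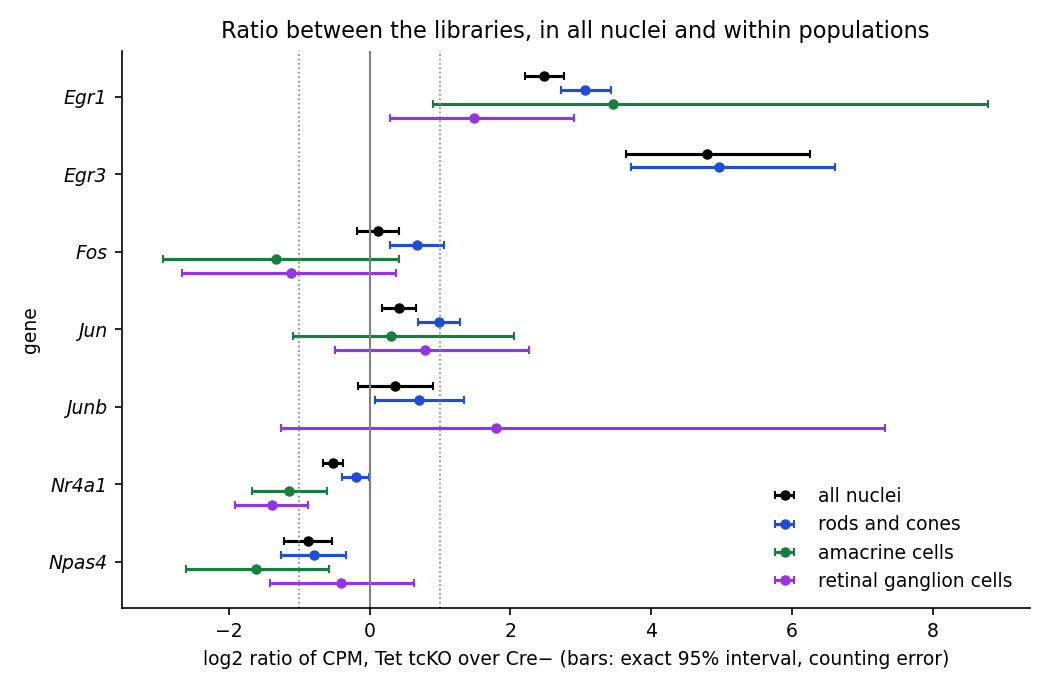
The log2 ratio of CPM, Tet tcKO over Cre−, for 7 immediate early genes in all nuclei (black), rods and cones (blue), amacrine cells (green) and retinal ganglion cells (purple), with exact 95% intervals for counting error. Dotted lines mark 2-fold. Egr1 lies right of 0 in all 4 populations, Fos lies right of 0 in rods and cones (0.67), and Nr4a1 lies furthest left in retinal ganglion cells (−1.39) and amacrine cells (−1.15). Ratios with Cre− at 0 UMIs are not drawn.

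In amacrine cells and RGCs Nr4a1, the member with most UMIs there, stood lower in Tet tcKO. In 403 Cre− and 1043 Tet tcKO amacrine nuclei, Nr4a1 gave 47 and 89 UMIs, or 84.1 CPM (61.8 to 112) and 38.0 CPM (30.5 to 46.8), a log2 ratio of −1.15 (−1.67 to −0.61). In 567 and 704 RGC nuclei it gave 83 and 55 UMIs, or 67.5 CPM (53.7 to 83.6) and 25.8 CPM (19.4 to 33.6), a log2 ratio of −1.39 (−1.91 to −0.88). Nr4a1 was the 1 member with a mean of at least 20 CPM in these smaller populations, and it was called lower in both. That cut was chosen after seeing the data and left the other members untested for calls. Among them Egr1 was more than 2-fold higher in both populations. Npas4 in amacrine cells was more than 2-fold lower, as was Fos in both populations with intervals that spanned 0. With each nucleus thinned to 500 UMIs the log2 ratio was −1.45 (−2.43 to −0.46) in amacrine cells and −0.86 (−2 to 0.23) in RGCs, where the call was lost. Of the 7666 genes tested in amacrine cells 3.67% were called lower and 2.95% higher, and of the 7340 in RGCs 1.69% and 1.5%. Most amacrine nuclei lay in different clusters in the libraries (cluster 27 with 256 of Cre−, cluster 12 with 357 of Tet tcKO). The largest RGC cluster was cluster 8 in Cre− (394 nuclei) and cluster 31 in Tet tcKO (273 nuclei, beside 58 of Cre−). In RGC cluster 2, which both libraries filled, Nr4a1 stood at 59.7 CPM and 22.4 CPM, a log2 ratio of −1.41 (−2.35 to −0.52). In RGC cluster 31 it gave 6 and 17 UMIs, 70.7 CPM (26.0 to 154) and 36.4 CPM (21.2 to 58.3), with overlapping intervals. In amacrine cluster 13, also shared, it gave 6 and 15 UMIs, 51.6 CPM and 58.1 CPM, and the sign was reversed with an interval that spans 0 (log2 ratio 0.17, −1.28 to 1.82).

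Npas4 was lower in amacrine cells, with 16 and 22 UMIs, 28.6 CPM and 9.39 CPM and a log2 ratio of −1.61 (−2.60 to −0.58), but at −0.37 (−2.05 to 1.53) once nuclei were thinned to 500 UMIs. In RGCs its difference was within counting error, at 13 CPM and 9.85 CPM (log2 ratio −0.40, −1.41 to 0.63). Fos, higher in photoreceptors, gave 6 and 10 UMIs in amacrine cells and 10 and 8 in RGCs, with log2 ratios of −1.33 (−2.93 to 0.41) and −1.12 (−2.66 to 0.38). Neither interval excluded 0. In rods and cones the Fos interval lay wholly above 0, and a difference between populations in the ratio was not tested.

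Egr1 was also higher in these inner retinal neurons, at a level that photoreceptor transcripts reached there too. Egr1 gave 1 and 46 UMIs in amacrine cells, 1.79 CPM and 19.6 CPM (log2 ratio 3.46, 0.91 to 8.79), and 7 and 34 UMIs in RGCs, 5.69 CPM and 15.9 CPM (1.49, 0.29 to 2.90), or 0.42 (−1.94 to 3.11) with nuclei thinned to 500 UMIs. Egr3 gave 0 and 12 UMIs in amacrine cells and 0 and 5 in RGCs, and 0 UMIs in Cre− amacrine cells allow up to 5.37 CPM, above the 5.12 CPM of Tet tcKO. In Tet tcKO amacrine nuclei the 9 cone markers stood at a median of 19.3% (15.8 to 37.4) of their level in rods and cones, and the 10 rod markers at 19.4% (14.8 to 37.0). Egr1 stood at 22.2%, Egr3 at 23.3% and Fos at 20.3%, inside both ranges. Nr4a1 at 63.1% and Npas4 at 109% were above both. In Tet tcKO RGCs the cone markers had a median of 14.6% (11.9 to 66.1), and Egr1 stood at 18.1%, Egr3 at 10.7%, Nr4a1 at 42.8% and Npas4 at 114%. In Cre− RGCs the 7 UMIs (2.29 to 11.7 CPM) put Egr1 at 53.9% of its photoreceptor level, beside cone markers at 22.2% (16.4 to 27.8). In Cre− amacrine cells 1 UMI put Egr1 at 16.9%, beside cone markers at 36.3% (29.7 to 73.4). Both counts were too few to set an order. Among the 7 Tet tcKO amacrine and RGC clusters of at least 50 nuclei, Egr1 was highest in amacrine cluster 23, with 21 UMIs, 40.4 CPM and 45.7% (28.3 to 69.9) of its photoreceptor level. The cone markers of that cluster were also higher, at a median of 28.1% (22.4 to 67.5). Egr1 was below the highest cone marker in each of the 7 clusters, but that marker could lie far from the others and sets no narrow limit. In RGC cluster 15 it was at 91.4%, while the cone marker median was 13.9% and Egr1 was at 14.0% (6.70 to 25.7). In RGC cluster 31 Egr1, at 31.6% (16.8 to 54.0), was above the highest rod marker (27.7%) and the cone marker median (19.6%). The part of photoreceptor transcripts in the Egr1 and Egr3 levels of amacrine cells and RGCs was not tested.

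**Figure D3:**
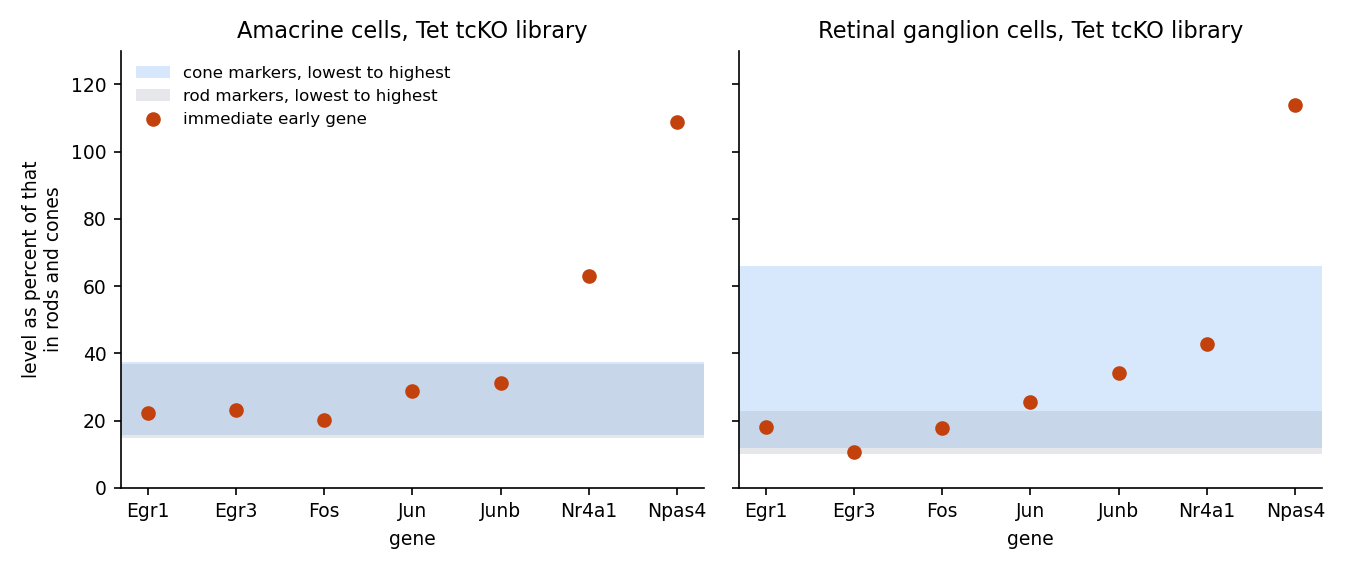
Level of each immediate early gene in amacrine cells and retinal ganglion cells of the Tet tcKO library as a percent of its level in rods and cones of that library (points). Shaded bands run from the lowest to the highest of the cone markers (blue) and rod markers (grey). Egr1 and Egr3 lie at the level of the markers in amacrine cells (22.2% and 23.3%), while Npas4 lies at 109% and 114%.

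The order of the annotated classes differed by gene. In Tet tcKO, Egr1 was at 88.2 CPM in cones, 52.9 CPM (46.3 to 60.1) in nuclei annotated as bipolar, 33.5 CPM (10.9 to 78.2) in Müller glia, 19.6 CPM in amacrine cells and 15.9 CPM in RGCs. The bipolar annotation failed the marker check and is not ranked here. The intervals of Müller glia, amacrine cells and RGCs overlapped, and all 3 lay below that of cones. In Cre−, Egr1 was at 27.0 CPM (9.91 to 58.8) in Müller glia, 16.4 CPM (11 to 23.6) in nuclei annotated as bipolar and 10.5 CPM in rods, with overlapping intervals. Egr3 in Tet tcKO was at 22.0 CPM in cones and 13 CPM (9.91 to 16.9) in nuclei annotated as bipolar. In Cre−, Nr4a1 was broad, from 31.6 CPM in horizontal cells to 84.1 CPM in amacrine cells. In Tet tcKO it was at 60.3 CPM in cones, 49.9 CPM in nuclei annotated as bipolar, 38.0 CPM in amacrine cells and 25.8 CPM in RGCs. Müller glia gave 6 and 5 UMIs of Egr1, 15 and 6 of Jun and 13 and 3 of Nr4a1, and no interval of these ratios excluded 0. In horizontal cells Egr1 gave 0 UMIs in both libraries, which allows up to 18.9 CPM and 27.0 CPM.

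**Figure D4:**
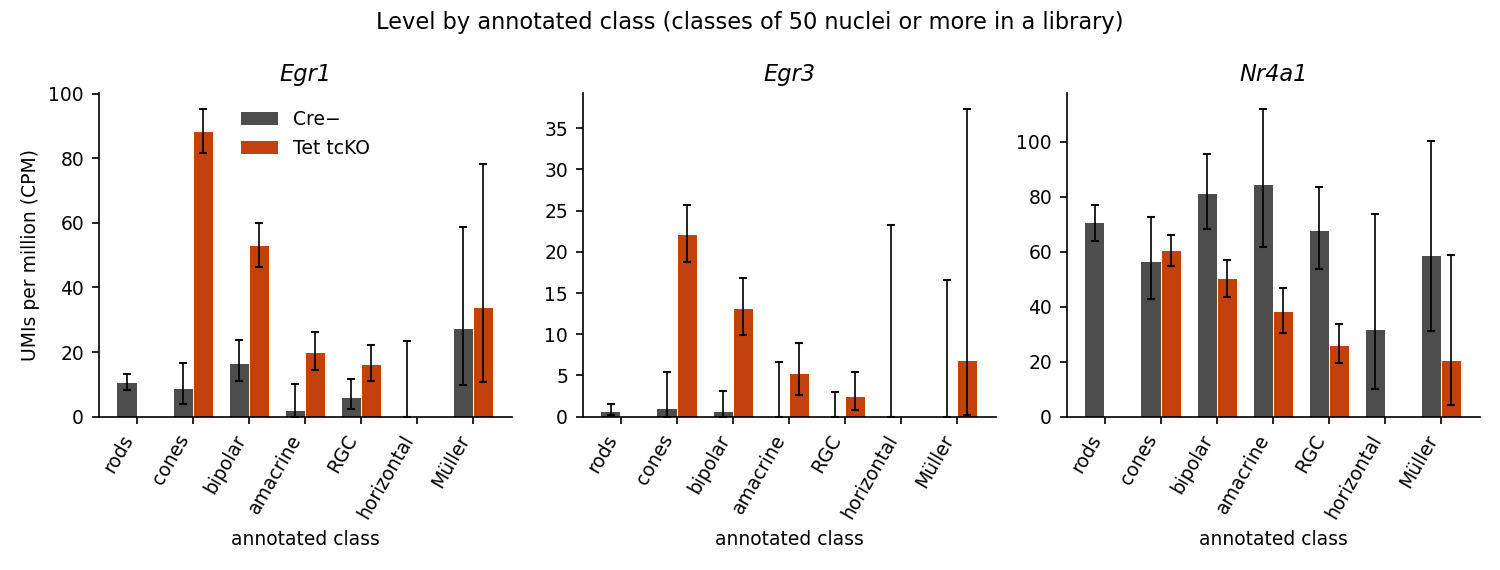
Level of Egr1, Egr3 and Nr4a1 by annotated class in the Cre− (grey) and Tet tcKO (orange) libraries, in CPM, for classes with at least 50 nuclei in that library. Bars on the columns are exact 95% Poisson intervals. Egr1 and Egr3 are highest in Tet tcKO cones (88.2 and 22.0 CPM), and Nr4a1 is lower in Tet tcKO than in Cre− in amacrine cells and RGCs.

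No ratio between genotypes was taken for nuclei annotated as bipolar, which failed the marker check. In 4 of 9 bipolar clusters the leading genes held more markers of some other class than bipolar ones. Besides, no bipolar cluster had 50 nuclei in both libraries. Levels within Tet tcKO varied among the bipolar clusters. Egr1 ran from 17.6 CPM (4.79 to 45.0) in cluster 42 to 92.2 CPM (64.5 to 128) in cluster 22. The 9 cone markers stood in Tet tcKO bipolar nuclei at a median of 66.7% of their level in rods and cones, and Egr1 at 59.9%. By cluster, Egr1 was at 104%, 78.7%, 60.1%, 52.2%, 48.8% and 19.9% of its level in rods and cones in clusters 22, 41, 39, 35, 43 and 42. The cone marker medians, at 146%, 87.4%, 61.6%, 53.0%, 52.1% and 31.7%, had the same order. The part of photoreceptor transcripts in the Egr1 level of these clusters was not tested.

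Across the 22 clusters of at least 50 Tet tcKO nuclei, Egr1 ran from 11.6 to 110 CPM with a median of 47.5 CPM, and across the 25 Cre− clusters from 0 to 28.6 CPM with a median of 7.76 CPM. By point value all 8 Tet tcKO cone clusters, at 40.9 to 110 CPM, were above every Cre− cluster. So were Tet tcKO clusters 22, 35, 39, 41 and 43 (annotated bipolar), 37 (Müller glia) and 23 (amacrine). The interval of the lowest cone cluster, 52 (24.2 to 64.6 CPM), overlapped that of the highest Cre− cluster, Müller cluster 14 (9.30 to 66.8 CPM, 5 UMIs). Egr1 was also among the 10 leading genes of cone cluster 50, beside Opn1sw, Gnat2 and Gngt2, so its part in defining that cluster was a use of the same values. Egr3 was at 0 to 25.1 CPM in Tet tcKO clusters and reached 6.58 CPM in 1 Cre− cluster. Over Tet tcKO clusters the level of Egr1 went with those of Egr3 (Pearson r 0.88), Jun (0.89), Fos (0.83) and Nr4a1 (0.75), and not with that of Npas4 (−0.08). Over Cre− clusters r with Egr1 was 0.64 for Jun, 0.11 for Fos and −0.01 for Egr3. These are descriptions without a test, since clusters of 1 library share its preparation, its depth and its photoreceptor transcripts.

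**Figure D5:**
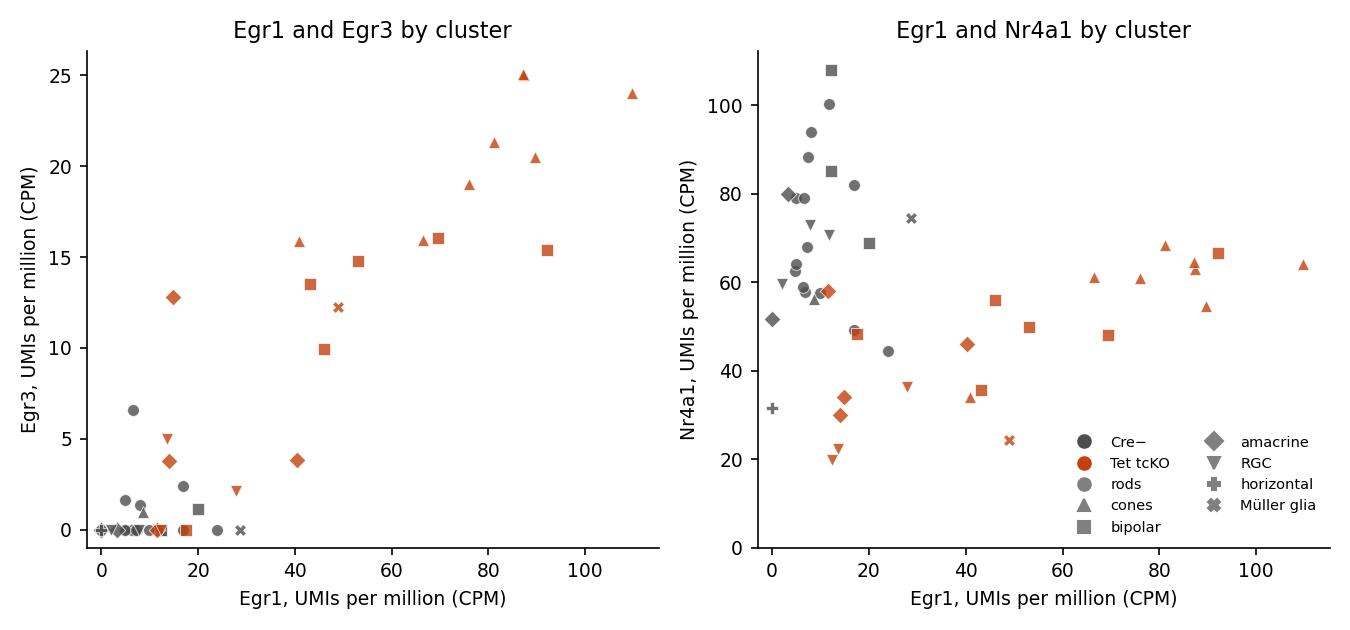
Level of Egr1 against Egr3 (left) and against Nr4a1 (right), in CPM, with 1 point per cluster of at least 50 nuclei. Grey points are Cre− and orange points Tet tcKO, and shapes give the annotated class. Tet tcKO cone clusters (triangles) reach 110 CPM of Egr1, while Cre− clusters stay at or below 28.6 CPM.

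How much of each difference came with the shares of the classes, and how much with levels inside them, was worked out with rods and cones merged. For Egr1 the difference of 48.2 CPM was the sum of 53.7 CPM from levels and −5.54 CPM from shares. For Egr3 the 13.9 CPM were 15.3 CPM from levels and −1.39 CPM from shares. The lower Nr4a1, −21.2 CPM, was −21.2 CPM from levels and 0.0547 CPM from shares, and the lower Npas4, −6.67 CPM, was −7.33 CPM from levels and 0.661 CPM from shares. For all 4 genes the part from shares had the sign opposite to the difference. The change from rods to cones lies inside the merged class and counts here as a level.

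At equal depth, a larger share of Tet tcKO than of Cre− photoreceptor nuclei carried a member. With each nucleus thinned to 500 UMIs, at least 1 of the 9 members was found in 7.11% (6.40 to 7.86) of Cre− and 12% (10.9 to 13.2) of Tet tcKO rods and cones. In amacrine cells the shares were 6.20% (4.05 to 9.02) and 5.27% (4.00 to 6.81), in RGCs 5.47% (3.74 to 7.67) and 4.26% (2.89 to 6.03) and in nuclei annotated as bipolar 9.64% (7.52 to 12.1) and 8.55% (7.25 to 10), with overlapping intervals in each. Over all nuclei the shares were 6.88% (6.31 to 7.48) and 9.15% (8.47 to 9.86), against 18.1% and 31.7% at full depth, where the median depths were 1107 and 1836.5 UMIs. Egr1 was found in 34 of 4911 Cre− rods and cones, or 0.692% (0.480 to 0.966), and in 142 of 3231 in Tet tcKO, or 4.39% (3.71 to 5.16). Egr3 was found in 0 of 4911, which at this thinned depth allows a share of up to 0.0611% of nuclei with a UMI, and in 36 of 3231, or 1.11% (0.782 to 1.54). At full depth it was found in 5 of 4911, or 0.102%, and in 4.83%. Since Egr3 was picked for its rise, the share of nuclei with any member is not independent of that choice. Nr4a1 was found in 3.62% (3.12 to 4.19) and 3.19% (2.61 to 3.85), with overlapping intervals. At least 2 members were found together in 0.143% of Cre− and 0.526% of Tet tcKO rods and cones, and at least 3 in 0 of either.

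Whether Egr1 and Egr3 sat in the same nuclei could not be settled at this depth. At full depth, 47 of 573 Tet tcKO rods and cones with Egr1 also had Egr3, or 8.20% (6.09 to 10.8), against 109 of 2658 without Egr1, or 4.10% (3.38 to 4.93). Nuclei with Egr1 were deeper, with a median of 2563 UMIs against 1638.5. After thinning to 500 UMIs, Egr3 was found in 0 of 142 nuclei with Egr1, which at this depth allows up to 2.11% with a UMI, and in 36 of 3089 without it, or 1.17% (0.818 to 1.61).

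Other genes of these families and of the pathway were read from lists chosen with earlier results of these data known. Of 13 other EGR, AP-1 and NR4A genes, 3 passed 5 CPM and 0 were called in either direction, with log2 ratios of 0.20 for Nr4a2, 0.09 for Jund and −0.20 for Mafg and a median of 0.09. Of 24 other rapidly induced genes, 16 passed, 2 were called higher and 1 lower, with a median of 0.17. The higher pair was Ier5, a regulator of the heat-shock factor HSF1, at a log2 ratio of 1.36 and Klf10, a zinc finger factor induced by TGF-β, at 1.17. In rods and cones they stood at 2.13 (1.52 to 2.78) and 2.00 (1.40 to 2.65), from 27 and 28 UMIs in Cre− to 123 and 117 in Tet tcKO. The gene called lower was Klf2, a factor that responds to blood flow in endothelium, at a log2 ratio of −1.84, and 15 of its 107 Cre− UMIs came from cluster 25, which is led by haemoglobin genes and Ptprb and holds 133 Cre− nuclei and 1 Tet tcKO nucleus.

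Of 9 feedback inhibitors, 4 passed, 1 was called higher and 0 lower, with a median of 0.70. In rods and cones 5 passed, 3 were called higher and 0 lower, with a median of 1.07. Of all genes tested there 6.65% were called higher, and their median was 0.22. The gene called over all nuclei was Nab1, a corepressor that binds EGR proteins, at a log2 ratio of 1.11. Within rods and cones Nab1 stood at 19.3 CPM and 53.0 CPM (log2 ratio 1.46, 1.17 to 1.75), and in RGCs at 50.4 CPM and 53.9 CPM, 0.10 (−0.36 to 0.57). Dusp6 and Dusp5, phosphatases of ERK, stood at log2 ratios of 0.94 and 0.46, and Spry2, an inhibitor of receptor tyrosine kinase signalling, at −0.43. Of 17 upstream regulators, 17 passed, 0 were called higher and 1 lower, with a median of 0.15. Srf stood at a log2 ratio of 0.56, its partner Elk1 at 0.56 and Crem, a CREB relative, at 0.34. Mef2c, an activity-dependent transcription factor, stood at a log2 ratio of −1.62, and within rods and cones at 173 CPM and 51.8 CPM. Of its Cre− UMIs, 9.04% came from rod cluster 19, which holds 343 Cre− nuclei and no Tet tcKO nucleus.

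Of 12 later genes of neuronal activity, 9 passed, 0 were called higher and 1 lower, with a median of 0.38. Pcsk1, a prohormone convertase, stood at a log2 ratio of 0.96, Homer1, a postsynaptic scaffold, at 0.67, and Sorcs3 at 0.55. Inhba, the activin A subunit, stood at −1.17. Heat-shock genes, which can respond to handling, were set beside the members. Of 10, 8 passed, 1 was called higher (Hspa8, a constitutive chaperone, at a log2 ratio of 1.06) and 0 lower, with a median of 0.09. Hspa1a, the stress-inducible chaperone, stood at −0.13 and Hsp90aa1 at −0.65. In rods and cones 8 passed and 1 was called higher, with a median log2 ratio of 0.42, against 0.22 for all genes tested there. Hspa8 stood there at 1.48 (1.35 to 1.61), Hspd1 at 0.73, Hsph1 at 0.53 (0.25 to 0.81), Hsp90ab1 at 0.41, Hspa1a at 0.21 (−0.23 to 0.65) and Hsp90aa1 at −0.44. The part of handling in the levels of the members was not tested.

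The genes most like Egr3 and Nr4a1 were named by Pearson's r of log2(CPM + 1) over 10 points, 5 classes in each of 2 libraries, which share their library and its depth. Of 8267 genes, Gm35229 (0.97), Gngt2 (0.97), Chrnb4 (0.96), Fabp7 (0.96) and Mfsd4a (0.96) were nearest to Egr3, and Gngt2 encodes the cone transducin γ subunit. For Nr4a1 the nearest were Gm14009 (0.97), Mars1 (0.96), Pcyt2 (0.95), Letm1 (0.95) and Ssrp1 (0.94), all of them lower in Tet tcKO over all nuclei, with log2 ratios of −0.88 to −0.39.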

How the data were processed

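Nuclei of whole retinas were captured with a particle-templated 3′ kit (PIPseq), and reads were processed with pipseeker 3.3.0 against GRCm39, per the labels. The authors then removed ambient RNA with CellBender at a cell probability of 0.99 and deposited whole UMI counts per gene and nucleus. They kept nuclei of more than 500 and fewer than 10000 transcripts with less than 20% of them mitochondrial, and 7357 of 7357 Cre− and 6766 of 6766 Tet tcKO nuclei had matrix sums equal to the deposited totals, between 502 and 9981. The deposited mitochondrial percent of each nucleus and the clusters and class names are the authors' own. The deposited size factor, a ratio, was not used. The signal per genotype in the deposited gene table matched counts per 10000, averaged over nuclei, within 0.001 for 32227 genes.

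For each population and library, a gene's summed UMIs were set against those of all genes together. Log2 ratios put Tet tcKO above Cre− and carry an exact conditional 95% interval, while levels carry Poisson and shares Clopper-Pearson intervals. A count of 0 was read against a floor of 3 counts, and a ratio was left out where neither count exceeded 3 or where the other library was under that floor. Calls were 2-fold differences among genes with a mean of at least 5 CPM, or 20 CPM in amacrine cells and RGCs, a choice made after seeing the data. No doublet caller was run, and leaving out the 5% of nuclei with most UMIs stood in for it. In the marker check, a class failed where the 10 leading genes of any of its clusters held fewer of its own markers than of some other class. Leaving out cluster 32, the comparison of shared clusters 2, 13 and 31 and the values without cluster 25 were chosen after seeing the data. Genes named from each list are the 3 highest and 3 lowest log2 ratios that passed the filter, with some left unnamed. The members and lists were chosen with earlier results of these data known. Promoter windows came from RefSeq, whose build differs from that of the counts, and were matched by symbol. Scripts used Python 3.11.15, numpy 2.4.6, scipy 1.17.1, pandas 2.3.3 and R 4.3.3 with edgeR 4.0.16 and DESeq2 1.42.0 for scaling alternatives only, and were tested on simulated data.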

Additional observations from a re-analysis of the deposited data

Results flagged for a closer look

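The deposited gene table counts more nuclei with each member than the 2 matrices hold, so some nuclei behind that table were not analysed here. Beyond the nuclei of the matrices it counts 145 with Egr1, 48 with Egr3, 86 with Fos, 7 with Fosb, 131 with Jun, 30 with Junb, 245 with Nr4a1 and 34 with Npas4. These are 10.3% (Npas4) to 23.3% (Fosb) of the nuclei the table counts for those genes. The genotype, class and depth of these nuclei are not known from the table, and none entered a comparison.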

How the results depend on the processing

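No paired analysis was possible because each genotype had 1 library. Of 272 log2 ratios recomputed under other scalings, depths or sets of nuclei, 262 stayed within their interval and kept their sign where a 2-fold call had been made, 9 moved outside it and 1 reversed, that of Nr4a1 in amacrine cells with cluster 13 only (0.17), which was chosen after seeing the data. Over all nuclei the log2 ratio of Egr1 ranged from 2.37 to 2.95 and that of Egr3 from 4.43 to 5.13. In RGCs the log2 ratio of Egr1 fell to 0.42 (−1.94 to 3.11) when nuclei were thinned to 500 UMIs, where that of Nr4a1 was −0.86 (−2 to 0.23). Thinned in amacrine cells, that of Npas4 was −0.37 (−2.05 to 1.53). With nuclei under a mitochondrial percent of 5, 495 Cre− nuclei remained, 6 of them rods and cones, and Jun over all nuclei moved to 1.61 (0.44 to 3.08). Genes called higher and lower numbered 866 and 652 at a mean of 1 CPM, 1982 and 1423 without a filter, and 1682 and 895 at a 1.5-fold call. At a mean of 10 CPM Egr1 kept its call, and Egr3 was not tested because its mean was 7.46 CPM. At 1.5-fold Egr1 and Egr3 kept their calls, and Npas4 was among the 895 genes called lower of 12654 tested. Thinned shares of nuclei were compared with shares at full depth and at 1000 UMIs, and 98 of 160 lay outside the interval of the thinned share. Arc and Fosb are limited by depth, with at most 13 UMIs in a library.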
